A study of Mus musculus with 97 samples.

Results

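The cell cycle and DNA replication genes are 40 genes chosen by name, of 20457 in the table of whole colon RNA: 12 of replication licensing and the fork, 4 of nucleotide supply, 4 of G1/S control, 6 that peak from S phase to G2 or drive late-cycle transcription, and 14 of mitosis. All 40 were found and all 40 passed the filter on low values (at least 1 TPM in at least 4 libraries), which left 17083 genes to test. The mice were C57BL6/J, 8 to 12 weeks old, with no allele or transgene given in the labels. They received ampicillin (a beta-lactam), metronidazole (active against anaerobes), neomycin (an aminoglycoside), vancomycin (a glycopeptide) or a mix of the 4, and the control groups received the carrier, phosphate buffered saline (PBS). The routes were gavage (PO), injection into the peritoneum (IP) and injection into a vein (IV). Every group followed 1 schedule of 100 µl, with 2.5 mg of antibiotic or none, 2 times a day for 3 days and again on day 4, and the colon was taken 4 hours after the last dose. This gave 18 groups and 97 libraries. Metronidazole-IP, Metronidazole-IV, Vancomycin-IP and PBS-IP have 4 libraries, Neomycin-IV, Vancomycin-IV and PBS-IV have 5 and the other groups 6. How much of each antibiotic the mix held is not stated in the labels. The labels do not say that replicates are separate mice, so the p-values here rest on variation from sample to sample, some of which may be technical.

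Cells of the colon crypt divide throughout life, and most dividing cells lie in its lower part, where stem cells and their progenitors renew the epithelium. In G1 the D and E type cyclins with their kinases release E2F factors, the Mcm proteins are loaded on origins by Cdc6 and Cdt1, and replication then runs on nucleotides made by Tyms, Tk1 and the ribonucleotide reductase subunits. Genes of G2 and mitosis switch on later, under Foxm1, Mybl2 and the complexes that bind CCAAT boxes and the cell cycle homology region (CHR) of their promoters. In whole tissue, fewer dividing cells and less of these RNAs per cell cannot be told apart.

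Among the 40 genes, those of mitosis and the late cycle made up most of the ones called lower than in PBS, after ampicillin and after the mix. Averaged over the 3 routes, 11 of 40 genes fell after ampicillin and 3 (Cenpa, Mki67 and Cenpe) after the mix, against 2.75% and 3.27% of all genes. None of the 12 licensing and fork genes was called in either, where these shares leave few calls to expect among 12 genes. The difference between the gene lists was not tested. Leaving out 1 library moved the counts of 11 and 3 to between 6 and 15 and to between 1 and 13. With the smooth muscle content of each library as a covariate the counts were 7 and 8, against 2.76% and 6.16% of all genes lower. For fits with 1 library left out, the share of all genes is given only under that covariate. In single groups, the only calls without that covariate were 2 higher and 4 lower in Vancomycin-IP, against 16% and 3.08% of all genes. None of these was called with the covariate. After vancomycin over the routes the lower calls were also of mitosis and the late cycle, beside higher calls of Ccnd1 and E2f1. Those counts and shares are given below, and none was called with the covariate.

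Sequencing depth cannot be read from TPM and is unknown. No 2 libraries were identical. Between 18247 and 19884 genes were above 0 in a library, and the 13 mitochondrial genome genes took 3.52% to 27.5% of the TPM. Epithelial markers were present in all libraries (Epcam from 60.2 to 2472 TPM), and so were muscle markers (Myh11, smooth muscle myosin, from 694 to 14640 TPM). The smooth muscle score averages log2(TPM + 1) over 18 genes and ran from 7.87 to 12.1. The posterior Hox score, from 5 genes that mark distal gut, ran from 0.80 to 6.15. In 12 libraries the column stands at the end of the table, out of the order of the others: 3 Vancomycin-PO, 3 Vancomycin-IP, 2 Vancomycin-IV, 2 PBS-IP and 2 PBS-IV. The labels do not call these a batch.

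TPM are per length, so levels can be set side by side between genes. Pcna, the sliding clamp of the replication fork, had the highest median TPM over the 97 libraries, 61.8, followed by Mki67, the Ki-67 proliferation antigen, at 55.7 and Ccnd1, cyclin D1, at 46.7. Top2a, the topoisomerase that untangles sister chromatids, had a median of 45.3 TPM and Plk1, a mitotic kinase, 38.5 TPM. The lowest were the licensing factor Cdc6 at 2.50 and the checkpoint kinase Bub1 at 2.80 TPM. Spread between libraries differed from gene to gene as well. The highest library exceeded the lowest 103-fold for Cdc20, which activates the anaphase-promoting complex, 81.6-fold for Bub1 and 58.2-fold for Mki67 (3.94 to 229 TPM). The same ratio was 3.76 for the helicase subunit Mcm7, 4.09 for Pcna and 6.43 for Ccnd1. The lowest library was most often Ampicillin-IP replicate 6 or Vancomycin-IV replicate 3.

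The mean log2(TPM + 1) of the 40 genes ran from 2.12 to 4.68 in single libraries. By mouth it was 3.47 ± 0.65 after ampicillin, 4.03 ± 0.28 after metronidazole, 3.62 ± 0.84 after neomycin, 3.96 ± 0.61 after vancomycin and 3.61 ± 0.46 after the mix, against 4.04 ± 0.33 in PBS-PO (SD, n = 6 each). Into the peritoneum it was 3.44 ± 0.70 after ampicillin, 3.84 ± 0.65 after metronidazole, 4.30 ± 0.22 after neomycin, 3.42 ± 0.81 after vancomycin and 3.40 ± 0.68 after the mix, against 4.15 ± 0.35 in PBS-IP (SD, n = 4 or 6). Into a vein it was 3.31 ± 0.71 after ampicillin, 3.40 ± 0.51 after metronidazole, 3.90 ± 0.53 after neomycin, 3.44 ± 0.84 after vancomycin and 3.5 ± 0.36 after the mix, against 3.47 ± 0.58 in PBS-IV (SD, n = 4 to 6). PBS-IV thus stood lower than the other PBS groups, in part through replicate 4, at 2.47 against 3.54 to 3.90 in the other 4 libraries. No gene of the 40 was called between the PBS groups (limma, adjusted p under 0.05), with 0% of all genes called either, and at an unadjusted p under 0.05 there were 0 in PBS-IP against PBS-PO and 3 in PBS-IV against PBS-PO, where 1.57% and 2.07% of all genes passed. The 3 were the mitosis genes Bub1b, Aurkb and Ccnb1, all lower in PBS-IV, and the median of the 14 mitosis genes was -1.01 (0 called), which bears on each comparison that uses PBS-IV.

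**Figure D1:**
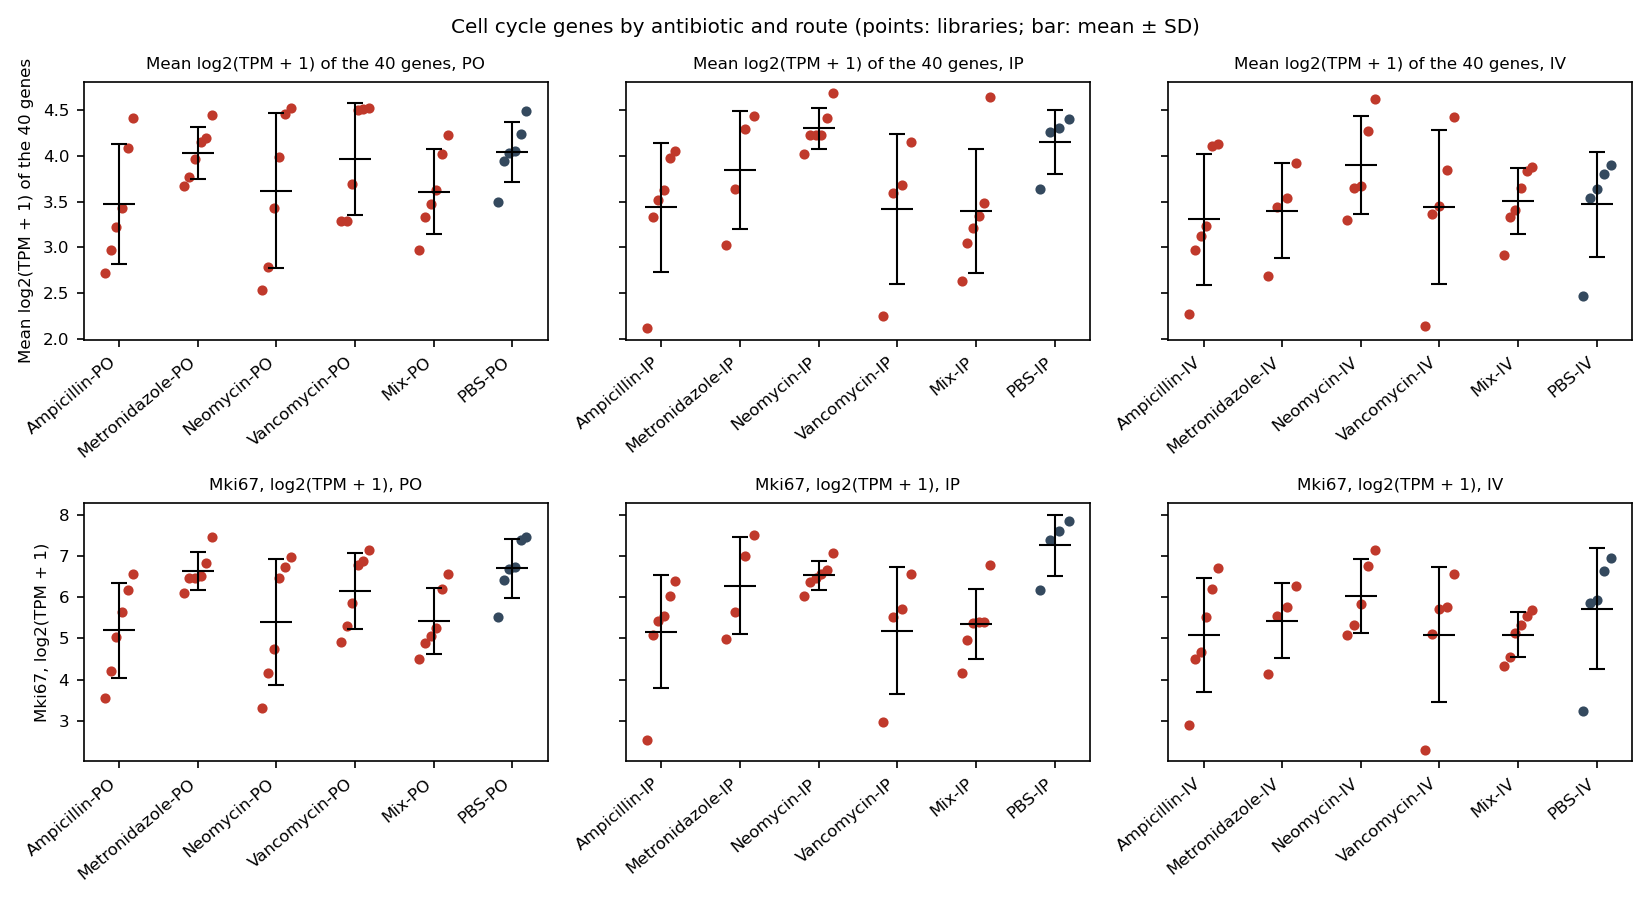
Mean log2(TPM + 1) of the 40 genes (upper row) and log2(TPM + 1) of Mki67 (lower row) in each group, by route. Points are libraries and bars the mean ± SD; most groups spread over more than the distance between antibiotic and PBS means, and Ampicillin-IP replicate 6 lies lowest of all in the upper row, at 2.12.

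Most of the 40 genes moved together from library to library. With group means removed, 34 of the other 39 correlated with Mki67 at a Pearson's r over 0.5 and 19 at over 0.8. These are 97 libraries that share tissue makeup as well as cycle state. How many of all genes reach these values was not computed, so the 34 and 19 have no background share beside them. Cenpa, the centromeric histone, followed Mki67 most closely (r = 0.967, Spearman's rho = 0.95), before Top2a (r = 0.951, rho = 0.937) and Ube2c, a ubiquitin conjugating enzyme of mitotic exit (r = 0.945, rho = 0.921). For these 3 the permutation p was 1e-05, the smallest that 100000 resamples within groups can give. The adjusted permutation p was 1.15e-05 (Benjamini-Hochberg over 39 genes), the same for all 34 genes with r over 0.5. Median r was 0.923 over the 14 mitosis genes, 0.89 over the 5 late-cycle genes other than Mki67, 0.83 over the 4 nucleotide genes, 0.707 over the 12 licensing and fork genes and 0.401 over the 4 G1/S genes. Ccnd1 did not follow Mki67 (r = -0.108, rho = -0.125, adjusted permutation p = 0.36 and 0.271).

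Leaving out the 2 libraries with Mki67 farthest from the median, Vancomycin-IV replicate 3 and Ampicillin-IP replicate 6, gave r = 0.963 for Cenpa and -0.195 for Ccnd1. Within the 12 columns at the end of the table r was 0.981 for Cenpa, and within the other 85 it was 0.965. The checkpoint kinase Bub1b differed more, at 0.425 in the 12 and 0.797 in the 85, with 0.753 in all. The weakest positive values were 0.335 for Mybl2, a late-cycle transcription factor, 0.36 for Ccne1, cyclin E1, 0.411 for Hells, a chromatin remodeller of replicating cells, and 0.442 for E2f1, a G1/S transcription factor.

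**Figure D2:**
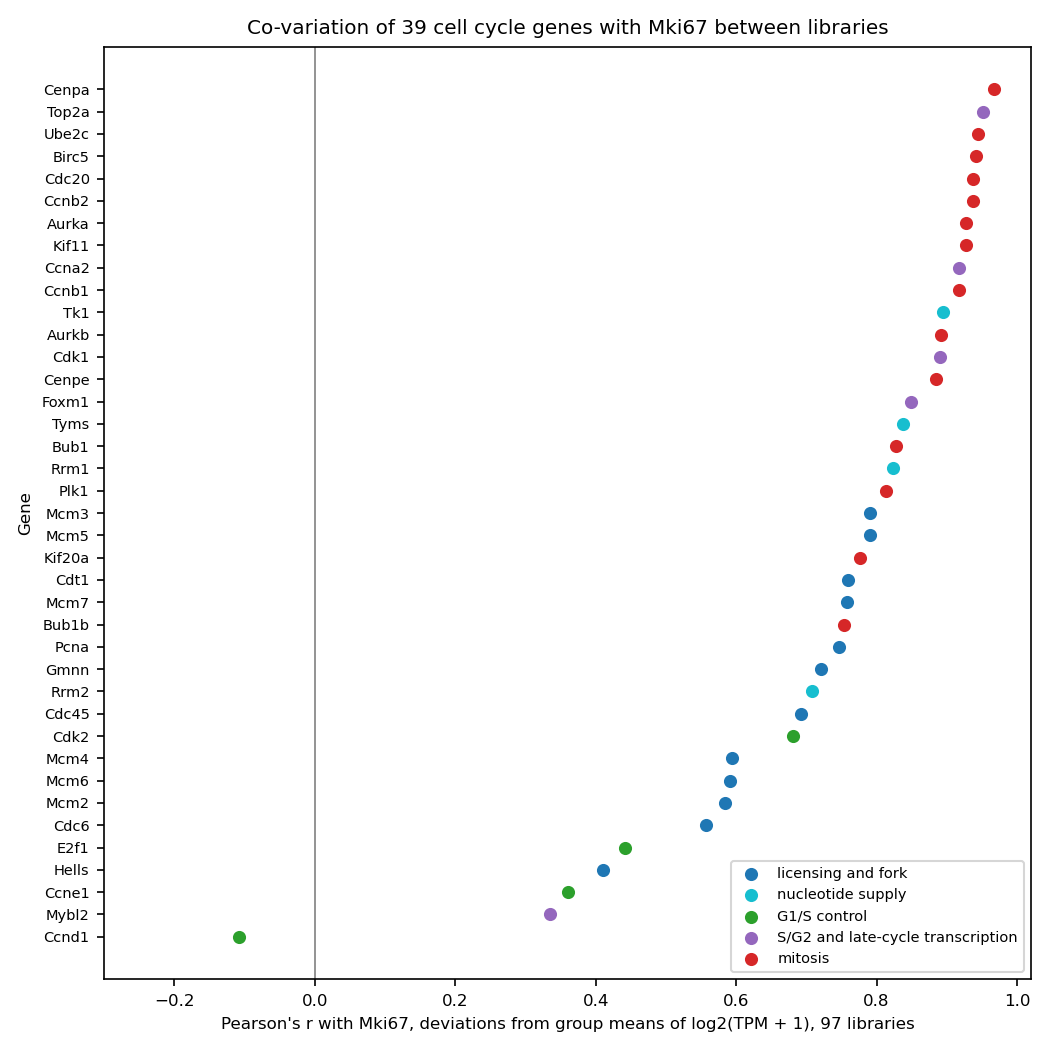
Pearson's r of each gene with Mki67 across 97 libraries after group means were removed, coloured by role. Mitosis genes fill most of the upper end, up to Cenpa at 0.967, and Ccnd1 lies alone below 0, at -0.108.

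Most of the promoters that could be read held 1 or more of the sequence elements searched for, which the choice of genes did not use. RefSeq entries (GRCm38.p6) held 33 of the 40 genes, and the 250 bases before the start site were searched on both strands for CCAAT, for the CHR, spelled TTTGAA and in its other form TTCGAA, and for the E2F site, spelled TTGGCGC and in its other form TTCCCGC. Of these, CCAAT was in 24 of 33 (72.7%), against 37.5% of 27025 genes. The CHR was in 11 (33.3%), against 19.6%, and the E2F site in 10 (30.3%), against 6.45%. By role, 11 of 12 mitosis promoters held CCAAT, 5 the CHR and 1 the E2F site, and of 10 licensing and fork promoters 7 held CCAAT, 3 the CHR and 5 the E2F site. Ccne1, E2f1, Mybl2, Cdt1, Birc5, Tk1 and Tyms held no match of any kind. A match describes these letters only. Shown are Mki67, at chr7:135716380-135716629, the licensing genes Mcm5 and Mcm6, whose 4 matches were the most of that list together with 1 of the 2 Mcm7 windows, Mcm5 at chr8:75109259-75109508 and Mcm6 at chr1:128359706-128359955, and the mitosis genes with most matches, Ccnb2 at chr9:70421555-70421804 and Ube2c at chr2:164769679-164769897. Mcm5 and Ube2c lie on the plus strand and the other genes on the minus strand, each reads 5′ to 3′ along its gene, and capitals mark matches. In Ube2c the last 31 bases are left out because an annotated exon begins there; its CHR match lies in them, and 2 of its 6 CCAAT matches overlap.
Mki67: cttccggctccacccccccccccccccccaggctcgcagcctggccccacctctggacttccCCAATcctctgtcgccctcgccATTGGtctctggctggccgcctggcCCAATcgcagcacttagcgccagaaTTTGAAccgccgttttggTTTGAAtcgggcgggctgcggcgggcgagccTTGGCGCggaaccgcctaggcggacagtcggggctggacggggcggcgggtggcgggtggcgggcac
Mcm5: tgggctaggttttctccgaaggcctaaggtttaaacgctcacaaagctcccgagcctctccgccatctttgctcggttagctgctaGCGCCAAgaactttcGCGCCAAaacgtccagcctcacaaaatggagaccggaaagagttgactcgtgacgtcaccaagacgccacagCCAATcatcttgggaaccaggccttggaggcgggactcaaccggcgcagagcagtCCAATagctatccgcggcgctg
Mcm6: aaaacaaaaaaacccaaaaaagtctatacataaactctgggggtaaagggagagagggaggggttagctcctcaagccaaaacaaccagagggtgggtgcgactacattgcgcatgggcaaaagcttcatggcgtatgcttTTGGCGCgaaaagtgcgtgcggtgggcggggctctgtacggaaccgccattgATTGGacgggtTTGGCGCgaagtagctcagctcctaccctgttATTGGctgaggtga
Ccnb2: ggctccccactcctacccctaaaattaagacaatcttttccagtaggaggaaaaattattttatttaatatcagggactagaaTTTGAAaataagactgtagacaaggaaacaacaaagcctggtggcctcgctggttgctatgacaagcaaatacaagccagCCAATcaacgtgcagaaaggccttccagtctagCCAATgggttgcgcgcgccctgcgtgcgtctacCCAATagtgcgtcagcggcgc
Ube2c: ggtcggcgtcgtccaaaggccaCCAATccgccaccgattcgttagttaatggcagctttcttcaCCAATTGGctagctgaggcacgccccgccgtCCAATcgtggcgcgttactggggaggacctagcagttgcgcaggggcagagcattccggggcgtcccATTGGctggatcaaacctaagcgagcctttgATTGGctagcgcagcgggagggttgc
Mki67 held 3 CCAAT, 2 CHR and 1 E2F match, Mcm5 and Mcm6 each 2 CCAAT and 2 E2F matches, and Ccnb2 3 CCAAT and 1 CHR match.

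The level of the 40 genes varied with the tissue makeup of the library. With group means removed, 32 of 40 had a negative slope on the smooth muscle score and 2 a positive one (limma, adjusted p under 0.05), against 33.5% and 41.8% of all genes tested. Their median slope was -0.25 log2 units per unit of score, against 0.02 for all genes. The steepest were Plk1 at -0.54, Cdc20 at -0.45 and the licensing inhibitor Gmnn at -0.41. The positive slopes were Ccnd1 at 0.34 and Ccne1 at 0.10. Mcm6, Rrm1, Cdc45, Cdk2, Hells and E2f1 had no called slope. On the crypt stem and progenitor score 39 of 40 rose, all but Ccnd1, against 33.9% of all genes. That score includes Cdca7 and Myc, and slopes on a score without them were not tested. On the posterior Hox score 35 rose and 0 fell, against 25.2% and 22.7%. On an epithelium score, added after the data were seen, 36 rose and Ccnd1 fell, against 35.6% and 41.3%.

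Lymphoid follicles also hold dividing cells. On a B cell score 8 of 40 genes rose, against 12.7% of all genes, and these were the helicase subunits Mcm2, Mcm3, Mcm4, Mcm5 and Mcm7, the licensing factor Cdt1, the kinase Cdk2 and E2f1. On a germinal centre score 8 rose as well, against 16.9%: Mcm2, Mcm3, Mcm4, Mcm7, Cdt1, Cdk2, E2f1 and Ccne1. None of the 14 mitosis genes was called on either score. These counts are near the share of all genes. The 8 genes of the B cell score also had called positive slopes on the crypt and on the posterior Hox score, as had those of the germinal centre score, 8 on crypt and 7 on Hox.

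**Figure D3:**
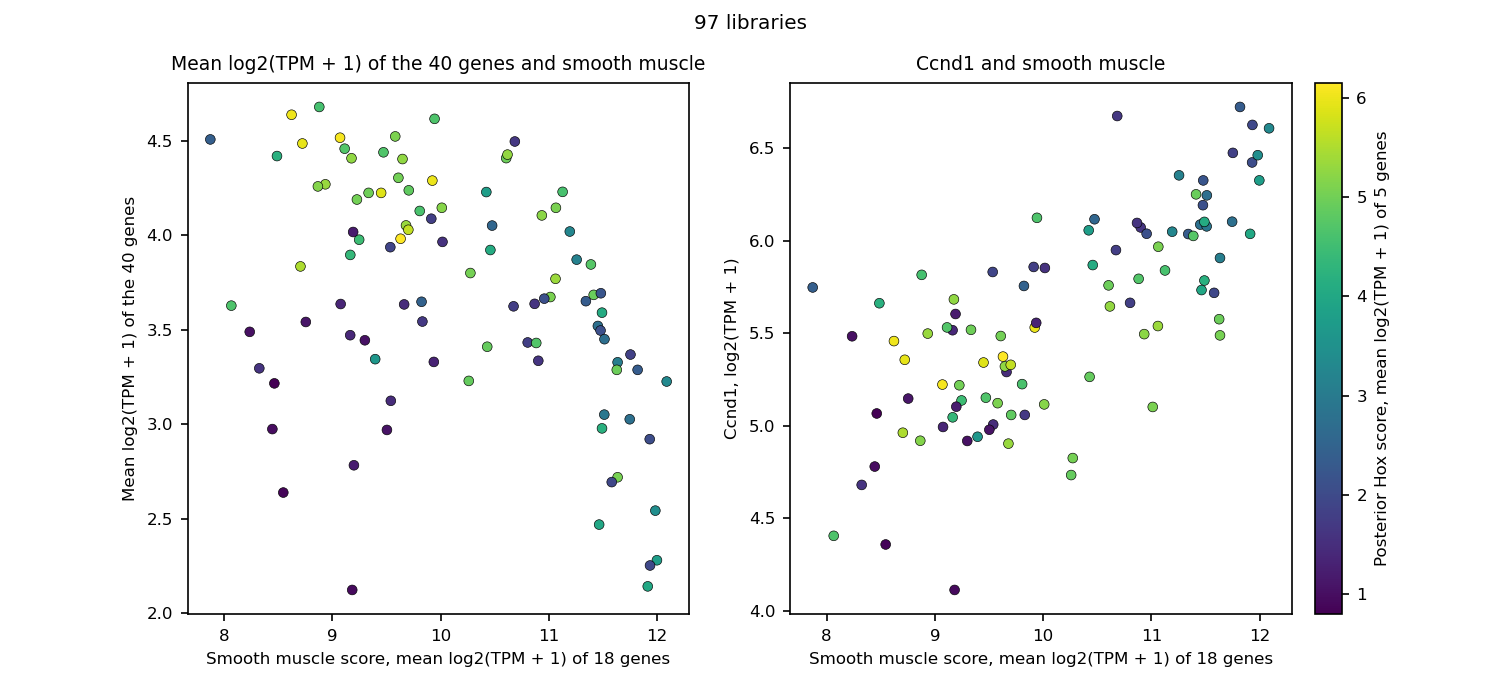
Mean log2(TPM + 1) of the 40 genes (left) and Ccnd1 (right) against the smooth muscle score in 97 libraries, coloured by the posterior Hox score. Low means gather at the highest muscle scores and, in a second set of libraries, at low muscle and low Hox scores, among them the lowest of all at 2.12; Ccnd1 rises with muscle.

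Group means of the smooth muscle score differed. It averaged 11.5 ± 0.36 in Vancomycin-IP against 9.30 ± 0.39 in PBS-IP (SD, n = 4 each), with no overlap between the groups, and 11.1 ± 0.79 in Ampicillin-PO against 9.94 ± 0.94 in PBS-PO (SD, n = 6 each). It averaged 9.13 ± 1.23 in Mix-IP, near PBS-IP. The posterior Hox score averaged 2.08 ± 1.15 in Mix-PO against 3.84 ± 1.86 in PBS-PO, and 2.54 ± 2.08 in Mix-IP against 4.2 ± 1.89 in PBS-IP. The crypt stem and progenitor score averaged 4.27 ± 0.48 in Ampicillin-PO and 4.34 ± 0.20 in Mix-PO against 4.85 ± 0.42 in PBS-PO. It averaged 4.33 ± 0.71 in Ampicillin-IP and 4.08 ± 0.56 in Mix-IP against 5.10 ± 0.63 in PBS-IP, and 4.37 ± 0.70 in Ampicillin-IV and 4.24 ± 0.44 in Mix-IV against 4.42 ± 0.52 in PBS-IV. The epithelium score averaged 8.42 ± 1.19 in Ampicillin-PO and 9.67 ± 0.14 in Mix-PO against 9.53 ± 0.70 in PBS-PO, and 8.17 ± 0.81 in Vancomycin-IP against 9.75 ± 0.31 in PBS-IP. The part of the crypt score in the ampicillin and mix results was not tested. Each comparison is given without and with the smooth muscle score as a covariate, which enters as a straight line.

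In the 15 comparisons of an antibiotic group with PBS of its route, 14 had no member called. The share of all genes called in either direction was 0.0702% in Ampicillin-PO, 0.492% in Ampicillin-IP and 0.0820% in Ampicillin-IV, 0% in each metronidazole group, and 0.0176% in Neomycin-PO, 0.603% in Neomycin-IP and 0.544% in Neomycin-IV. It was 0.176% in Vancomycin-PO, 0.258% in Vancomycin-IV, 0.252% in Mix-PO, 0.275% in Mix-IP and 0% in Mix-IV. The median log2 fold change of the 40 genes was below 0 in 11 of the 15, and lowest in Mix-IP (-0.78), Vancomycin-IP (-0.77), Ampicillin-IP (-0.63) and Ampicillin-PO (-0.53), where the medians of all genes were -0.03, 0.11, 0.05 and 0.08. It was highest in Neomycin-IV, at 0.44 against -0.03 for all genes. Leaving out 1 library took the median to -0.38 in Vancomycin-IP (without replicate 2), to -0.32 in Ampicillin-IP (without replicate 6) and to 0.23 in Neomycin-IV (without replicate 5). It took the median across 0 in Ampicillin-IV (up to 0.06), in Metronidazole-PO and Metronidazole-IV, in Neomycin-IP, in Vancomycin-PO and Vancomycin-IV, and in Mix-IV. With the smooth muscle covariate 9 of the 15 medians were below 0. Antibiotics of a route share its PBS libraries, so these medians are not independent. With the smooth muscle covariate 14 comparisons again had no member called, all but Mix-IP. Leaving out 1 library in that fit gave 3 called in Ampicillin-IP without PBS-IP replicate 3 (2.5% of all genes) and 1 without Ampicillin-IP replicate 1 (1.63%). It gave 1 in Ampicillin-IV without Ampicillin-IV replicate 4 (0.369%) and 1 in Neomycin-IP without Neomycin-IP replicate 6 (0.972%). With all libraries kept, the share of all genes called in that fit was 0.111% in Ampicillin-PO, 2.0% in Ampicillin-IP and 0.375% in Ampicillin-IV. It was 0% in each metronidazole group, 0.0293% in Neomycin-PO, 1.08% in Neomycin-IP and 0.702% in Neomycin-IV. The share was 0.281% in Vancomycin-PO, 0.293% in Vancomycin-IP, 0.451% in Vancomycin-IV, 1.29% in Mix-PO and 0.0410% in Mix-IV.

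**Figure D4:**
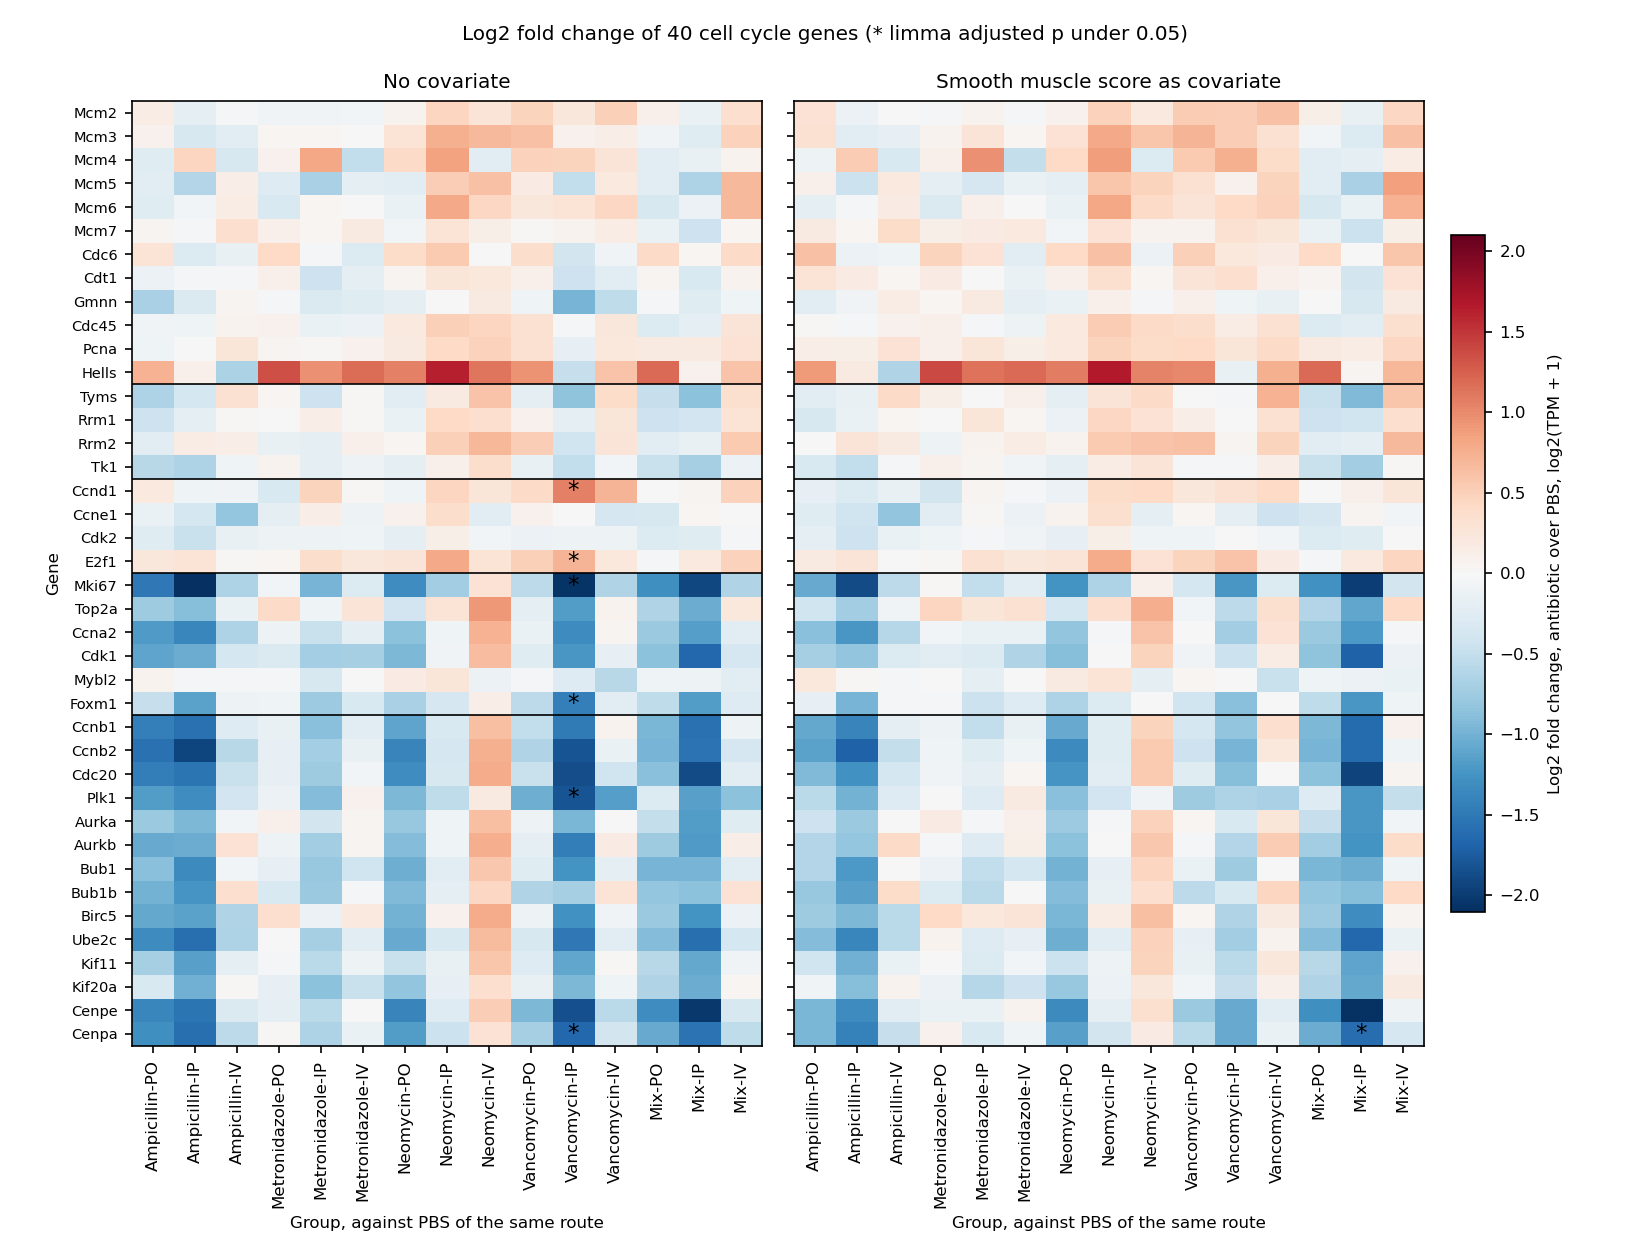
Log2 fold change on log2(TPM + 1) of each of the 40 genes in each of 15 groups over PBS of the same route, without and with the smooth muscle score as a covariate. Stars mark a limma adjusted p under 0.05. The lower blocks (late-cycle and mitosis genes) are blue in Ampicillin-PO, Ampicillin-IP, Neomycin-PO, Vancomycin-IP, Mix-PO and Mix-IP, and Vancomycin-IP fades in the right panel. In Metronidazole-IP the 14 mitosis genes had a median of -0.72, against 0.07 for all genes (0 called), and of -0.28 with the covariate.

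After ampicillin 8 of the 14 mitosis genes and 2 of the 6 late-cycle genes fell in the average over routes, and no member was called by a single route. Mki67 was at 10.7, 40.3 and 93.0 TPM (lowest, median and highest) in Ampicillin-PO, against 44.6, 103 and 175 in PBS-PO. It was at 4.76, 43.4 and 82.5 TPM in Ampicillin-IP, against 229, 194, 71.4 and 166 in the 4 PBS-IP libraries. It was at 6.42, 34.4 and 104 TPM in Ampicillin-IV, against 57.4, 123, 59.8, 8.37 and 98.1 in the 5 PBS-IV libraries. The groups overlapped by each route, and most by vein. Averaged over routes (18 ampicillin and 15 PBS libraries), Mki67 had a log2 fold change of -1.41 (limma, adjusted p = 0.01, SE 0.37).

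Cenpa was at 5.80, 13.2 and 27.3 TPM in Ampicillin-PO, against 21.8, 35.4 and 52.5 in PBS-PO. It was at 3.11, 13.3 and 25 TPM in Ampicillin-IP, against 49.6, 51.8, 19.1 and 43.7 in PBS-IP. It was at 3.64, 11.3 and 30.2 TPM in Ampicillin-IV, against 21.0, 31.0, 18.2, 5.27 and 25.7 in PBS-IV. By mouth the top of the ampicillin range reached the 2 lowest PBS libraries, into the peritoneum it reached 1 of 4, PBS-IP replicate 3, and into a vein it covered 4 of 5. Over the routes Cenpa fell by 1.14 (SE 0.27, adjusted p = 0.00422) and by 0.96 with the muscle covariate (SE 0.26, adjusted p = 0.00995).

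In all, 11 of 40 genes were lower after ampicillin over the routes and 0 higher, against 2.75% of all genes lower and 5.13% higher. The median log2 fold change was -0.43, against 0.07 for all genes. Of the 14 mitosis genes 8 fell: Cenpa, the mitotic cyclins Ccnb2 (-1.36) and Ccnb1 (-1.09), Ube2c (-1.18), Cdc20 (-1.15), Plk1 (-0.96), Bub1 (-0.76) and Bub1b (-0.63). Of the 6 late-cycle genes Mki67 and cyclin A2, Ccna2 (-1.07), fell, and Top2a stood at -0.59 (adjusted p = 0.265) and the mitotic kinase Cdk1 at -0.84 (adjusted p = 0.113). Of the 4 G1/S genes Ccne1 fell by 0.44 (adjusted p = 0.0363). No nucleotide gene was called, with Tyms, thymidylate synthase, at -0.23. None of the 12 licensing and fork genes was called, and their median was -0.05. Mcm2 stood at -0.02, Mcm5 at -0.24 and Pcna at 0.06. The difference between the mitosis and licensing lists was not tested.

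With the muscle covariate 7 fell and 0 rose, against 2.76% and 6.67% of all genes: Cenpa, Ccnb2, Ccne1, Mki67 (-1.16, adjusted p = 0.024), Ccnb1, Ube2c and Ccna2. Cenpa, Ccnb2, Mki67, Ccnb1, Ube2c and Ccna2 were called in the fit without covariate with each of the 33 libraries left out in turn, at an adjusted p of at most 0.0491. Cdc20, Plk1, Bub1, Bub1b and Ccne1 each lost their call without any 1 of 11 to 21 libraries. The count was 6 without Ampicillin-IP replicate 6, Ampicillin-IV replicate 2 or 3, Ampicillin-PO replicate 6 or PBS-IP replicate 4. It was 7 without Ampicillin-IP replicate 4 or 5, Ampicillin-PO replicate 3 or 4, PBS-IP replicate 1 or 2, PBS-IV replicate 1, 2, 3 or 5, or PBS-PO replicate 1, 4, 5 or 6. Without the 12 libraries at the end of the table it was 4, and Ccnb1 and Ube2c were not called. The count of 7 with the muscle covariate was 3 without Ampicillin-IP replicate 6 or PBS-IV replicate 2, at 8% and 7.57% of all genes called. It was 4 without Ampicillin-IP replicate 2, Ampicillin-IV replicate 2, 3, 4 or 5, Ampicillin-PO replicate 4, 5 or 6, PBS-IP replicate 1, 2 or 4, PBS-IV replicate 1 or 5, or PBS-PO replicate 5 or 6. In those fits 7.1% to 9.72% of all genes were called.

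No ampicillin group alone had a member called. At an unadjusted p under 0.05, 11 members were lower in Ampicillin-PO, 16 in Ampicillin-IP and 1 in Ampicillin-IV, and 0 higher, where 15.9%, 9.86% and 6.29% of all genes passed in either direction. The lowest were Ccnb2 in Ampicillin-PO (-1.57, SE 0.57, adjusted p = 0.282), Mki67 in Ampicillin-IP (-2.09, SE 0.69, adjusted p = 0.148) and Ccne1 in Ampicillin-IV (-0.81, adjusted p = 0.276). The highest were Hells in Ampicillin-PO (0.72), Mcm4 in Ampicillin-IP (0.45) and Mcm7 in Ampicillin-IV (0.35), and Bub1b had the smallest p by mouth (-1.0) and into the peritoneum (-1.24, adjusted p = 0.111). The effect by the 3 routes was not called different for any member (limma F test, 0 of 40 with 0% of all genes). At an unadjusted p under 0.05, which 1.41% of all genes passed, there was 1, Bub1b (limma F test, adjusted p = 0.989).

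After the mix 3 genes fell in the average over routes, 2 of mitosis and 1 of the late cycle. Mki67 was at 21.7, 34.7 and 93.5 TPM in Mix-PO, 17, 40.9 and 109 in Mix-IP and 19.1, 36.3 and 50.7 in Mix-IV (lowest, median and highest of 6), against the PBS values above. Mix-IP replicate 6 was the only Mix-IP library within the PBS-IP range. Over the routes 3 genes fell and 0 rose, against 3.27% and 4.69% of all genes. They were Cenpa (-1.05, SE 0.27, adjusted p = 0.01), Mki67 (-1.27, SE 0.37, adjusted p = 0.0232) and Cenpe, a kinetochore motor (-1.22, SE 0.41, adjusted p = 0.0498). The licensing median was -0.01 and the mitosis median -0.75. Mcm2 stood at 0.11, Pcna at 0.23, Tyms at -0.34 and Ccnd1 at 0.18, none called.

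Adding the muscle covariate, 8 fell after the mix and 0 rose, against 6.16% and 8.73% of all genes: Cenpa (-1.0, adjusted p = 0.00488), Mki67 (-1.21), Cenpe (-1.16), Bub1, Ube2c, Ccnb2, Ccnb1 and Cdk1 (-0.89, adjusted p = 0.0465). With muscle and posterior Hox scores together as covariates 2 were called, 1 of them lower, and neither Mki67 nor Cenpe was among them. With no covariate and without the 12 libraries at the end of the table there were 3 calls, 1 of them higher, against 5.1% of all genes, and again Mki67 (adjusted p = 0.0541) and Cenpe (adjusted p = 0.0679) were not called. Only Cenpa of the 3 was called with each of the 33 libraries left out. Mki67 was not called without PBS-IV replicate 2 (adjusted p = 0.0548), and Cenpe lost its call without any 1 of 22 libraries. The count without a covariate was 1 without PBS-IV replicate 2, 5 without Mix-PO replicate 6, 6 without PBS-PO replicate 2, 9 without PBS-IP replicate 3, 12 without PBS-IV replicate 4 and 13 without Mix-IP replicate 6. The count of 8 with the muscle covariate was 13 without Mix-IP replicate 6, at 17.3% of all genes called. It was 2 without Mix-IP replicate 4, Mix-PO replicate 1 or 4, PBS-IP replicate 1, 2 or 4, PBS-IV replicate 2 or PBS-PO replicate 6 (10.7% to 12.7%). It was 3 without Mix-IP replicate 2, Mix-IV replicate 2 or 3, PBS-IV replicate 5 or PBS-PO replicate 5 (12.5% to 15.9%). It was 4 without Mix-PO replicate 2, PBS-IV replicate 1 or PBS-PO replicate 4 (13.3% to 15.3%). It was 5 without Mix-IP replicate 5 or Mix-IV replicate 4 or 5 (11.7% to 16.7%).

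By route, Mix-IP had 0 called without the covariate, and 15 lower at an unadjusted p under 0.05, which 14.6% of all genes passed. The lowest was Cenpe at -2.02 and the one with the smallest p Cenpa at -1.55 (SE 0.50, adjusted p = 0.135). With the covariate Cenpa fell by 1.60 (SE 0.47, adjusted p = 0.0437) as the 1 member called, against 1.72% of all genes lower and 1.32% higher. That count was 16 without Mix-IP replicate 6 and 14 without PBS-IP replicate 3, where 10.6% and 14.1% of all genes were called. It was 0 without Mix-IP replicate 2, 3, 4 or 5 or PBS-IP replicate 1, 2 or 4, at 0.228% to 2.26% of all genes. In Mix-PO Mki67 stood at -1.29 (SE 0.61, adjusted p = 0.42) and in Mix-IV at -0.63 (SE 0.64, adjusted p = 0.904). The extremes were Hells (1.19) and Cenpe (-1.30) in Mix-PO, with Bub1b of smallest p (-0.81), and Mcm6 (0.69) and Plk1 (-0.86) in Mix-IV, with E2f1 of smallest p (0.49); E2f1 was highest in Mix-IP (0.20).

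**Figure D5:**
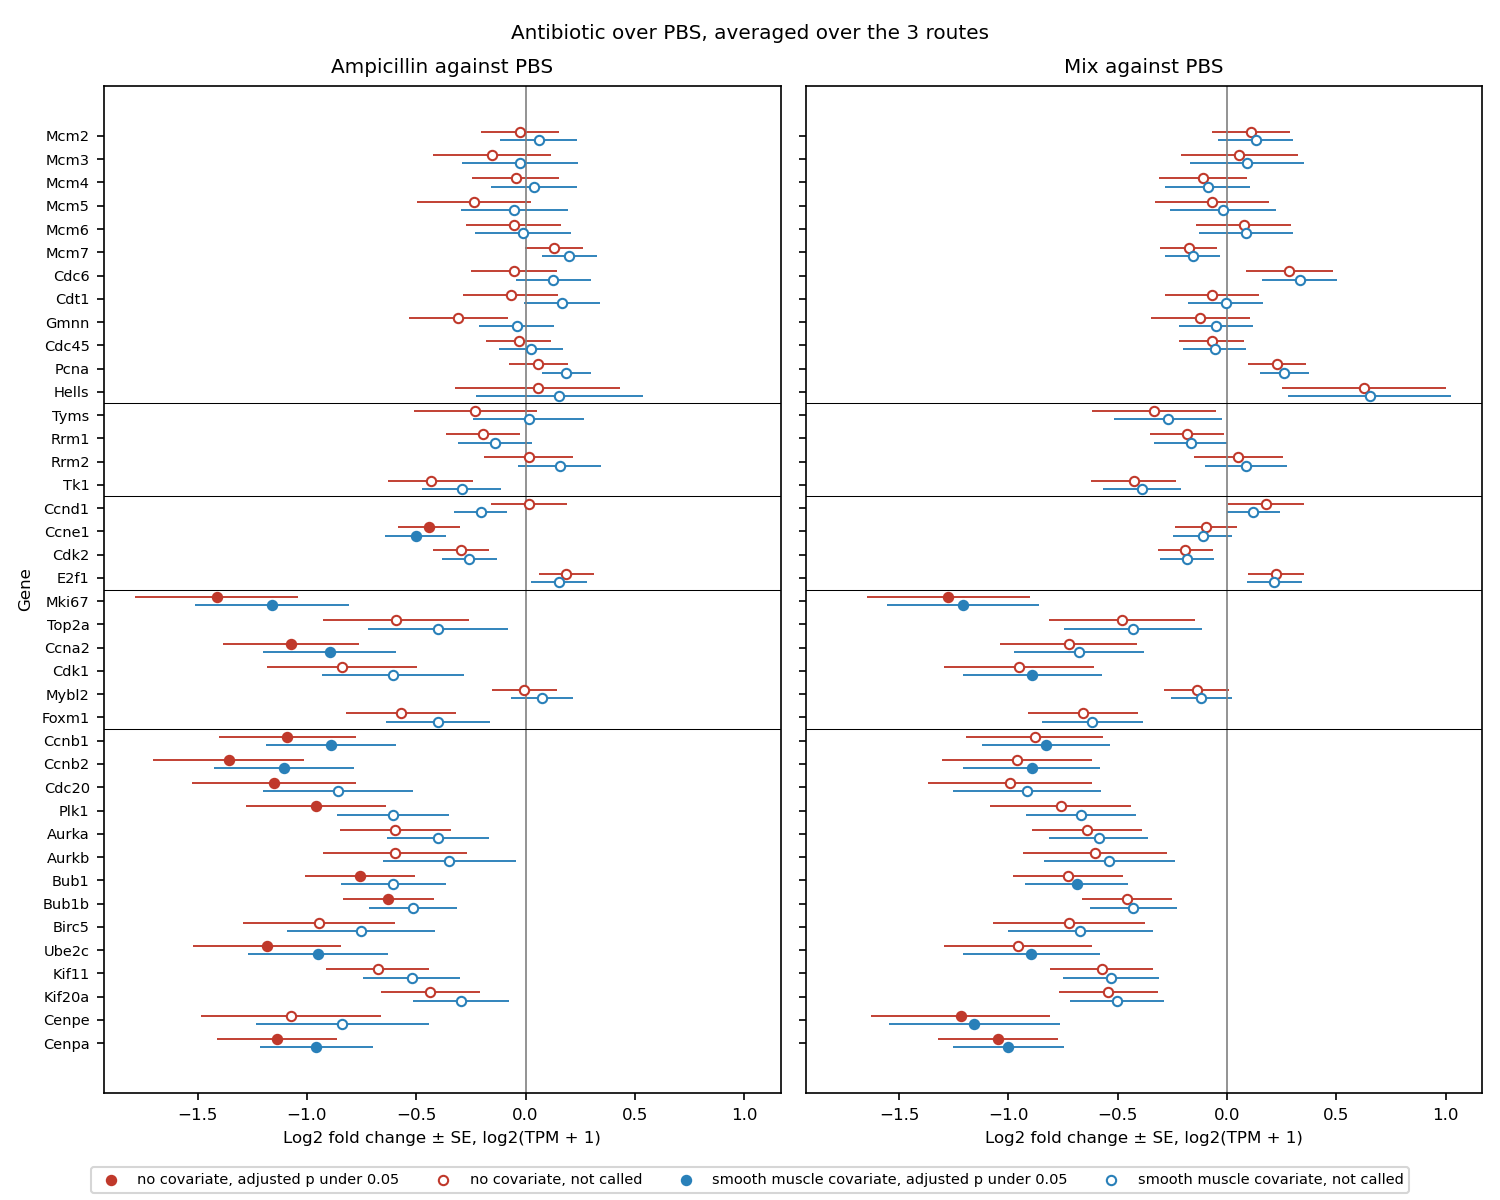
Log2 fold change ± SE of each gene after ampicillin (left) and the mix (right) over PBS, averaged over 3 routes, without and with the smooth muscle covariate. Filled points have a limma adjusted p under 0.05; the licensing genes at the top lie near 0, apart from Hells in the right panel (0.63, not called), and Mki67 and Cenpa are filled in both panels and both fits. The comparisons share the 15 PBS libraries.

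After vancomycin the calls went both ways, and none was made with the muscle covariate. The higher calls were a smaller share of the 40 genes than of all genes. In Vancomycin-IP the 4 libraries had 67.7, 97.9, 75.2 and 61.6 TPM of Ccnd1, against 29.3, 43.8, 30.9 and 39 in PBS-IP, with no overlap (1.06 higher, SE 0.35, limma adjusted p = 0.0297). Plk1 was at 26.0, 5.40, 25.3 and 28.8 TPM against 79.0, 72.4, 71.3 and 48.4 in PBS-IP, again without overlap (-1.82, SE 0.64, adjusted p = 0.0396). Mki67 was at 51.3, 6.89, 44.7 and 92.6 TPM against 229, 194, 71.4 and 166 (-2.07, SE 0.75, adjusted p = 0.0437); the highest vancomycin library exceeded the lowest PBS library. E2f1 rose (0.71, adjusted p = 0.0426), and Cenpa (-1.65, adjusted p = 0.0316) and Foxm1 (-1.44, adjusted p = 0.0383) fell. That made 2 higher and 4 lower of 40, against 16% of all genes higher and 3.08% lower.

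Once muscle was a covariate, 0 were called in Vancomycin-IP, against 0.293% of all genes. Ccnd1 then stood at 0.32, Plk1 at -0.65 and Mki67 at -1.22 (SE 0.73). At an unadjusted p under 0.05, which 8.33% of all genes passed, 1 member was higher and 0 lower. Muscle scores of these groups do not overlap, so the antibiotic and the muscle content cannot be told apart here. The count without the covariate was 0 without PBS-IP replicate 1 or Vancomycin-IP replicate 1 or 3, 1 without PBS-IP replicate 2 or Vancomycin-IP replicate 2, 2 without PBS-IP replicate 4 and 10 without Vancomycin-IP replicate 4. It was 0 without the 12 libraries at the end of the table, which leaves 1 Vancomycin-IP library.

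Over the routes vancomycin gave 2 higher and 5 lower, against 18.6% and 7.40% of all genes. Ccnd1 (0.73, SE 0.18, adjusted p = 0.00325), E2f1 (0.47, adjusted p = 0.00765) and Plk1 (-1.33, SE 0.34, adjusted p = 0.00353) were called with each of 30 libraries left out. Cenpa (-0.91) lost its call without Vancomycin-IP replicate 2, and Foxm1 (-0.74), Mki67 (-1.09) and Cenpe (-1.12) each without any 1 of 8 to 17 libraries. Given the muscle covariate 0 were called, against 4.44% of all genes, with 5 higher and 2 lower at an unadjusted p under 0.05 (17.6% of all genes). That count of 0 was 1 without PBS-IV replicate 4 or Vancomycin-PO replicate 1, 2 without PBS-IP replicate 4 and 3 without Vancomycin-IP replicate 2. In these fits 3.72% to 4.85% of all genes were called. The count of 7 without the covariate was 3 without Vancomycin-IP replicate 2. It was 4 without PBS-IP replicate 1, PBS-IV replicate 3 or 5, PBS-PO replicate 6, Vancomycin-IV replicate 3 or Vancomycin-PO replicate 2 or 3. It was 11 without Vancomycin-IV replicate 1, 12 without PBS-IV replicate 4, and 0 without the 12 libraries at the end of the table, 8 of which had received vancomycin. Mcm2 stood at 0.40 (adjusted p = 0.0973), Pcna at 0.12, Top2a at -0.44 and Cdc20 at -0.92 (adjusted p = 0.0714), none called. No member was called in Vancomycin-PO or in Vancomycin-IV. At an unadjusted p under 0.05, 1 was higher in Vancomycin-PO, and 1 was higher and 2 lower in Vancomycin-IV. That p was passed by 6.05% and 13.6% of all genes. The extremes were Hells (0.94) and Plk1 (-1.02) in Vancomycin-PO, with E2f1 of smallest p (0.49), and Ccnd1 (0.72) and Plk1 (-1.16) in Vancomycin-IV.

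After neomycin E2f1 was higher, and with the muscle covariate Hells as well. Both counts were near the share of all genes called higher, given below. E2f1 was at 2.74, 6.05 and 7.76 TPM in Neomycin-PO (lowest, median and highest), against 3.67, 4.26 and 5.53 in PBS-PO. It was at 4.85, 6.75 and 9.55 TPM in Neomycin-IP, against 2.22, 3.73, 4.70 and 3.54 in PBS-IP, with no overlap. The 5 Neomycin-IV libraries lay between 3.65 and 6.60 TPM with a median of 5.27, against 3.99, 2.96, 4.10, 4.40 and 4.90 in PBS-IV, and the groups overlapped. Over the routes E2f1 rose by 0.45 (SE 0.13, limma adjusted p = 0.0375), the 1 member called, against 2.08% of all genes higher and 0.258% lower. Hells stood at 1.27 (SE 0.38, adjusted p = 0.0547) and was called with the muscle covariate (1.26, adjusted p = 0.035), beside E2f1, against 4.03% of all genes higher and 0.697% lower. The licensing median was 0.33 and the mitosis median -0.24; Pcna stood at 0.36 (adjusted p = 0.173) and Mki67 at -0.58 (adjusted p = 0.664).

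The neomycin count was 0 without Neomycin-IP replicate 2, 3 or 5, Neomycin-IV replicate 2 or 5, Neomycin-PO replicate 3, 5 or 6 or PBS-IP replicate 1. It was 2 without Neomycin-IP replicate 4 or 6, Neomycin-PO replicate 1, PBS-IP replicate 3 or PBS-IV replicate 5, and 3 without Neomycin-PO replicate 2. E2f1 itself lost its call without any 1 of 14 libraries. With the muscle covariate the count of 2 was 1 without Neomycin-IP replicate 5, Neomycin-IV replicate 2 or 5, Neomycin-PO replicate 5 or 6, PBS-IP replicate 1 or 2, PBS-IV replicate 4 or PBS-PO replicate 1 or 3. In those fits 3.93% to 4.76% of all genes were called. In single groups no member was called; 9 were lower in Neomycin-PO, 4 higher in Neomycin-IP and 1 higher in Neomycin-IV at an unadjusted p under 0.05, which 5.35%, 5.81% and 7.24% of all genes passed. Hells was the highest in each (1.05, 1.64 and 1.12), and Ccnb2 in Neomycin-PO (-1.39), Mki67 in Neomycin-IP (-0.73) and Ccne1 in Neomycin-IV (-0.23) the lowest. Smallest p had Bub1b (-0.93), E2f1 (0.80, adjusted p = 0.113) and Pcna (0.48) in these groups. Hells had a positive log2 fold change in 13 of the 15 single comparisons, from -0.66 to 1.64, with a smallest adjusted p of 0.48.

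Metronidazole gave no call by any route or over the routes, against 0.398% of all genes in the average and 0.357% with the muscle covariate. In the average without covariate 1 member was higher and 1 lower at an unadjusted p under 0.05, which 9.48% of all genes passed. Mki67 was at 68.0, 89.0 and 175 TPM in Metronidazole-PO, against 44.6, 103 and 175 in PBS-PO. Over the routes Mki67 stood at -0.44 (SE 0.40), Mcm5 at -0.38 (SE 0.28) and Ccnd1 at 0.06 (SE 0.19). In single groups the lowest were Ccnd1 in Metronidazole-PO (-0.32), Mki67 in Metronidazole-IP (-0.98) and Cdk1 in Metronidazole-IV (-0.69), and the highest was Hells in each, at 1.36, 0.96 and 1.17. Mcm4 had the smallest p in Metronidazole-IP (0.81).

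Set against the 4 single antibiotics given by the same route, averaged, the mix had no member called. This stood beside 1.64% of all genes by mouth, 3.34% into the peritoneum and 0.00585% into a vein. At an unadjusted p under 0.05 there were 1, 3 and 2 members, where 18.6%, 26% and 2.41% of all genes passed. Under the muscle covariate Mcm7 (-0.65, SE 0.17, limma adjusted p = 0.0265) and Mcm4 (-0.96, SE 0.27, adjusted p = 0.0315) fell in Mix-IP, against 2.99% of all genes lower and 0.375% higher. There 39 of 40 log2 fold changes were negative, with a median of -0.63 against -0.06 for all genes. Most of the 40 moved together, so these are not separate observations. The posterior Hox score averaged 2.54 in Mix-IP, against 3.54 to 4.42 in the single-antibiotic IP groups, and its part here was not tested. By mouth and into a vein 0 were called with the covariate, beside 2.90% and 0.0117% of all genes. There was 1 member each at an unadjusted p under 0.05, which 21% and 2.86% of all genes passed. Mcm4 was between 6.09 and 8.5 TPM in 5 Mix-IP libraries and at 22.1 in the other one, against 7.01 to 34.2 in the single-antibiotic IP libraries. For the other antibiotics and for PBS, as for ampicillin, the F test that a treatment acts alike by all routes called 0 of 40 members, with at most 0.0878% of all genes called. Unadjusted p-values under 0.05 numbered 0 in metronidazole, 3 in neomycin, 0 in vancomycin, 1 in the mix and 4 in PBS. The shares of all genes were 0.913%, 2.44%, 6.6%, 2.38% and 2.26%, in that order.

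The other genes of the pathway, 105 listed and 104 tested, gave these counts; the list was also chosen with earlier results known. After ampicillin over the routes 9 of 40 other mitosis genes fell and 0 rose, against 2.75% of all genes lower and 5.13% higher, among them Hmmr (-0.58), a spindle assembly factor, and Sgo1 (-0.75), the cohesin protector. Of 38 other replication genes 0 were called, with a median of -0.11. Of 12 tested inhibitors and exit genes 2 rose, the pocket protein Rbl2 (0.47, adjusted p = 0.00341) and the inhibitor Cdkn1b (0.24), and of 14 other cyclins, kinases and E2F factors cyclin D3, Ccnd3, rose (0.71, adjusted p = 0.0239). With the muscle covariate the mitosis count was 2, Hmmr and Racgap1, against 2.76% of all genes lower. Cdkn1b and Racgap1 here, and Rfc4 and Rbl2 after the mix, were named after their values were seen.

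After the mix over the routes 10 of 40 other mitosis genes fell, among them the cytokinesis protein Racgap1 (-0.69), the kinesin Kif22 (-0.91) and Sgo1 (-0.77), and 13 fell with the muscle covariate, against 3.27% and 6.16% of all genes. The securin Pttg1 rose instead (0.41, SE 0.08, adjusted p = 0.000506). None of the 38 other replication genes was called without the covariate, and 1, the clamp loader subunit Rfc4 (-0.56), with it. Rbl2 rose as well (0.36, adjusted p = 0.0311); 4.69% of all genes were higher. After neomycin E2f2, a second E2F factor, rose by 0.92 (SE 0.21, adjusted p = 0.0035), with the condensin subunit Smc2 (0.81) and Pttg1 (0.29), against 2.08% of all genes higher. After vancomycin 7 of the 104 rose and 6 fell, shares below the 18.6% and 7.40% of all genes, led by Ccnd3 (1.07, adjusted p = 0.000531), the origin subunit Orc2 (0.59), Pttg1 (0.28) and the kinetochore protein Cenpf (-1.55), and with the muscle covariate 2 rose and 0 fell, against 4.44% of all genes in either direction.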

How the data were processed

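The authors deposited TPM for 97 libraries. The tools named are Trim Galore 0.6.2, cutadapt 3.5 and, without a version, Salmon, with build GRCm39, per the submitters' processing notes; per the labels' protocols, 1000 ng of RNA was poly(A) selected and read for 75 cycles, single-end. Strand use is not stated, so overlapping genes on opposite strands may share signal.

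Values were used as log2(TPM + 1), which understates changes of low genes. One limma 3.58.1 model (R 4.3.3, trend, robust) over 18 groups gave all comparisons, with Benjamini-Hochberg adjustment over 17083 genes within each, and a call at an adjusted p under 0.05. The second fit added the smooth muscle score. The model was also run on simulated data in which genes varied independently. Genes in these libraries vary together, so that run says nothing of calls under shared tissue makeup.

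The members and all gene lists were chosen with earlier results of these data known. Named are 10 fixed members, called members, each single comparison's highest, lowest and smallest-p members, and, per comparison, up to 4 called other pathway genes with the smallest p. Alternatives are covered in the closing section.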

Additional observations from a re-analysis of the deposited data

Results flagged for a closer look

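In 198 sets of 4 to 6 libraries (18 groups, the mean of the 40 genes and 10 fixed members), 12 had 1 library far from the rest by Dixon's criterion at 95%, where chance gives about 1 in 20. Values here are log2(TPM + 1). Ampicillin-IP replicate 6 was low for Mki67 (2.53, the others 5.07 to 6.38), Top2a (2.40, the others 5.12 to 6.24) and Mcm2 (1.70, the others 3.26 to 3.94). PBS-IV replicate 4 was low for the mean of the 40 genes (2.47, the others 3.54 to 3.90), for Pcna (5.05) and for Cdc20 (1.34, the others 3.75 to 4.30). Cdc20 was also low in PBS-IP replicate 3 (3.83, the others 5.38 to 5.49) and in Mix-IV replicate 2 (2.32). Ccnb1 was low in Neomycin-IP replicate 1 (3.27). High values were Mcm5 in PBS-PO replicate 4 (4.26, the others 3.31 to 3.48), Ccnd1 in Ampicillin-PO replicate 3 (6.61) and Tyms in Mix-IV replicate 3 (6.08, the others 3.88 to 4.64).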

How the results depend on the processing

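Counts are members called of 40, averaged over routes unless a group is named, each with the share of all genes called in the same fit in parentheses. A pseudocount of 10 gave 10 in Vancomycin-IP (21.7%), 2 after neomycin (2.62%) and 9 after the mix (8.46%). Quantile normalization gave 10 in Vancomycin-IP (21.2%). Leaving out mitochondrial genes gave 0 after neomycin (1.78%) and 6 after the mix (8.71%). Array weights gave 15 in Ampicillin-PO (18.1%), 6 in Ampicillin-IP (9.69%), 2 in Neomycin-IP (6.67%), 25 in Vancomycin-IP (57.9%), 4 in Vancomycin-IV (31.1%), 5 in Mix-PO (9.52%), 26 in Mix-IP (36.7%), 1 after metronidazole (1.54%), 4 after neomycin (6.64%), 21 after vancomycin (57.8%) and 24 after the mix (33.8%). The compared groups fitted alone gave 7 after ampicillin (6.47%), 0 after neomycin (1.53%), 4 after vancomycin (19%) and 8 after the mix (8.15%). Muscle as covariate gave 0 in Vancomycin-IP (0.293%), 1 in Mix-IP (3.03%), 7 after ampicillin (9.43%), 2 after neomycin (4.72%), 0 after vancomycin (4.44%) and 8 after the mix (14.9%). Muscle with posterior Hox gave 1 in Ampicillin-IV (0.825%), 1 in Neomycin-IP (1.64%), 0 in Vancomycin-IP (0.679%), 7 after ampicillin (13.2%), 4 after neomycin (7.36%) and 3 after vancomycin (7.07%). Muscle with B cells gave 0 in Vancomycin-IP (0.457%), 1 in Mix-IP (3.86%), 7 after ampicillin (11.6%), 3 after neomycin (5.94%), 2 after vancomycin (5.22%) and 8 after the mix (14.2%). Epithelium gave 4 in Ampicillin-IP (2.6%), 0 in Vancomycin-IP (0.825%, median log2 fold change -0.049), 1 in Mix-PO (1.69%), 7 in Mix-IP (3.37%), 3 after neomycin (5.08%), 4 after vancomycin (10.6%) and 17 after the mix (17.3%). Without the libraries at the end of the table there were 0 in Vancomycin-IP (0.0293%), 4 after ampicillin (2.85%), 2 after neomycin (1.64%), 0 after vancomycin (3.71%) and 3 after the mix (5.1%), 1 of these higher. With 1 library left out the range was 0 to 10 in Vancomycin-IP, 0 to 1 in Mix-IP, 6 to 15 after ampicillin, 0 to 3 after neomycin, 3 to 12 after vancomycin and 1 to 13 after the mix. These ranges are given without the share of all genes. Leaving out 1 library within the muscle fit was a combination chosen after seeing the data. It gave 3 to 8 after ampicillin (7.1% to 10.7%), lowest without Ampicillin-IP replicate 6 or PBS-IV replicate 2, and 2 to 13 after the mix (10.7% to 18.2%). Causes were not tested. The replicate numbers did not pair the samples (correlations of deviations from -0.696 to 0.837, 0 of 15 comparisons with all pairs over 0.1); a replicate block gave 10 (8.95%) after the mix and 13 (8.66%) after ampicillin. Among the 10 fixed members and those called in the same comparison of the main fit, no called value changed sign under these settings. Other members were not checked for a change of sign. The unknown depth limits what can be said of Bub1 and Cdc6, the lowest members.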
